A study of Mus musculus with 28 samples.

Results

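The replication-dependent histone genes supply most of the histone protein that packages newly copied DNA. The genes described here were all those whose symbol begins with Hist1h, Hist2h, Hist3h or Hist4h in the older nomenclature: 70 of 55573 genes in one deposited table, and the same 70 identifiers among 57126 genes in the other. They comprise 6 genes for the linker histone H1, 20 for H2A, 19 for H2B, 12 for H3 and 13 for H4. GENCODE M21 lists 3 members as pseudogenes, Hist1h2aj and Hist1h2al of H2A and Hist3h2bb-ps of H2B. They are kept in all counts. By symbol, 56 belong to Hist1 on chromosome 13, 10 to Hist2 on chromosome 3, 3 to Hist3 on chromosome 11, and Hist4h4 is alone on chromosome 6. The Hist1 members span positions 21715763 to 51203065, so the name does not mean that all lie close together. Each member was selected on its symbol, and the set itself was chosen by its levels and UV log2 fold changes in these same libraries. P-values are therefore given per gene, adjusted over every gene tested, and none is given for the set or for a family.

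Core histones H2A, H2B, H3 and H4 form the protein spool of the nucleosome, and H1 binds the DNA that enters and leaves it. Their genes lack introns in most cases and are transcribed in S phase under the coactivator Npat. The messages normally end in a short stem-loop bound by Slbp instead of a poly(A) tail, and they are degraded when DNA synthesis stops. Some members can also yield polyadenylated messages in cells that have stopped dividing. In skin, dividing cells are found mainly in the basal epidermis and in growing hair follicles.

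RNA of mouse skin was sequenced in 28 libraries of 8 groups, taken from females aged 12 weeks, shaved and depilated 5 days ahead of exposure. In the whole-body experiment, mice lacking the immune checkpoint gene Vsir in all cells, Vsir-/- (KO), were set against wild-type mice (WT). The 4 groups were KO_UV, KO_NoUV, WT_UV and WT_NoUV, with 3 libraries each. In the keratinocyte experiment, Vsirfl/fl mice with K14Cre (cKO) were set against Vsirfl/fl mice without Cre (FL), so that both carry the floxed alleles. The K14 promoter drives Cre in keratinocytes, and other cells of the skin keep Vsir. The 4 groups were cKO_UV, cKO_NoUV, FL_UV and FL_NoUV, with 4 libraries each. UV groups received 500 mJ/cm2 of ultraviolet B, and NoUV groups none. Titles place the harvest at 3 h and the protocol at 1 day after UV, and the labels do not settle which holds.

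Total counts per library were 30470828 to 43837915 in the whole-body experiment and 7117198 to 31138604 in the keratinocyte experiment, where FL_NoUV replicate 1 (7117198) and cKO_UV replicate 3 (7509742) were the shallowest. Vsir was lower in KO libraries, at 2.99 ± 0.916 CPM in KO_UV and 6.14 ± 0.951 CPM in KO_NoUV, against 22.1 ± 1.88 CPM in WT_UV and 38.4 ± 6.65 CPM in WT_NoUV (SD, n = 3 each; CPM is the usual count scaled to library size, here after TMM scaling). In the keratinocyte experiment it was 28.0 ± 10.9 CPM in cKO_UV and 33.8 ± 12.0 CPM in cKO_NoUV, against 29.5 ± 4.83 CPM in FL_UV and 25.3 ± 8.91 CPM in FL_NoUV (SD, n = 4 each). Gene-level counts cannot show loss of the floxed exons and the tissue holds other cells, so Vsir does not check the cKO labels. Basal keratinocyte markers, among them Krt5 and Krt14, summed to 4985 CPM or more in every keratinocyte-experiment library. Skeletal muscle markers were also present, at 2179 to 17750 CPM. In bulk tissue, fewer cells of a type and less RNA per cell cannot be told apart.

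The sequence element that marks these messages was searched for in the annotated transcripts of GENCODE M21 (GRCm38), as a 5' stem arm GGNNCT, a loop TTTN and a 3' stem arm AGNNCC in direct succession on the sense strand. It was found in 44 of 70 members (62.9%) and in 0.161% of all 55450 genes. Family counts were 4 of 6 for H1, 11 of 20 for H2A, 10 of 19 for H2B, 8 of 12 for H3 and 11 of 13 for H4. No match says only that these letters are not in the annotated transcript, which ends before the element in some members. Examples from the genes whose changes are described are shown, with the stem-loop in capitals and 5 flanking bases on each side.
Hist1h1c: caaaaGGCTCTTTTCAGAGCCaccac
Hist1h1e: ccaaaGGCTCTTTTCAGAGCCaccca
Hist2h2ac: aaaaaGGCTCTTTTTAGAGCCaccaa
Hist1h2bk: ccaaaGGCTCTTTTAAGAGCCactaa
Hist1h3e: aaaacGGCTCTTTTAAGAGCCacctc
Hist2h4: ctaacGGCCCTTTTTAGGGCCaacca
Hist4h4: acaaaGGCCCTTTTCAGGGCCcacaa
Hist1h4c: caaaaGGCCCTTTTCAGGGCCaccca
Hist1h4h: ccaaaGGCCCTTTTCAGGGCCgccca
Hist1h4j: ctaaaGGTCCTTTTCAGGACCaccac
On GRCm38 they lie at chr13:23739507-23739532 (plus), chr13:23621777-23621802 (minus), chr3:96220413-96220438 (minus), chr13:22036295-22036320 (plus) and chr13:23561898-23561923 (minus) in the order shown, and then at chr3:96262934-96262959 (minus), chr6:136803993-136804018 (minus), chr13:23698084-23698109 (minus), chr13:23531453-23531478 (plus) and chr13:21735432-21735457 (plus), with the strand in parentheses. Families differed in the stem. The core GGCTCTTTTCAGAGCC was the most common, in 26 members, none of them an H4 gene. The 11 H4 members with a match had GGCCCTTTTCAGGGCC in 7, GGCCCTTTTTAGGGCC in 2 and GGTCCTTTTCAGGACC in 2, and no member of another family had any of these 3. The annotated transcript ran on for more than 100 bases beyond the element in 22 members, for example 1257 bases in Hist2h4, 2445 bases in Hist4h4 and 1153 bases in Hist1h1e, and for at most 100 bases in the other 22.

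Promoters were available for 58 of 70 members from RefSeq (GRCm38.p6), each with 250 bases before and 50 after the transcription start. They were searched on both strands for 4 motifs. The letters TATAAA stand for the core promoter element that binds the TATA-binding protein. The letters CCAAT are bound by the factor NF-Y. The octamer ATTTGCAT is known from H2B promoters. The AC box, AAACACA, is known from H1 promoters. In no member promoter did matches of different motifs overlap. CCAAT was present in all 6 H1, 17 H2A, 14 H2B and 10 H3 promoters but in 3 of 11 H4 promoters (27.3%), against 41.1% of all 27025 promoters of the same length. The octamer was present in 7 of 14 H2B and 6 of 17 H2A promoters and in none of H1, H3 or H4, against 1.97% of all. Windows of some neighbouring H2A and H2B genes on opposite strands overlap, such as Hist1h2ah with Hist1h2bk, Hist1h2ae with Hist1h2bg and Hist1h2aa with Hist1h2ba. In these pairs the same letters are counted in both families, the octamer included. The AC box was present in 5 of 6 H1 promoters, against 8.22% of all, and TATAAA in 34 of 58 member promoters, against 15.7% of all. A match is a description of letters and shows no binding. The H1 and H2B arrangements are shown for Hist1h1e, chr13:23622509-23622808 (minus strand), and Hist1h2bk, chr13:22035571-22035870 (plus strand), of which Hist1h1e was called lower after UV in cKO and FL skin and Hist1h2bk in cKO skin alone. Capitals mark the motif matches.
Hist1h1e: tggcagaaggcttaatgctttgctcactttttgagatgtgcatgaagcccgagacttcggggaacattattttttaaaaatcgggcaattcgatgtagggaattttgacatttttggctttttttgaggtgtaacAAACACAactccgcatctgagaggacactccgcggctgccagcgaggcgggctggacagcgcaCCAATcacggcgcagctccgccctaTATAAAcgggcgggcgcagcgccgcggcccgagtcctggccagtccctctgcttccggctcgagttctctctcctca
Hist1h2bk: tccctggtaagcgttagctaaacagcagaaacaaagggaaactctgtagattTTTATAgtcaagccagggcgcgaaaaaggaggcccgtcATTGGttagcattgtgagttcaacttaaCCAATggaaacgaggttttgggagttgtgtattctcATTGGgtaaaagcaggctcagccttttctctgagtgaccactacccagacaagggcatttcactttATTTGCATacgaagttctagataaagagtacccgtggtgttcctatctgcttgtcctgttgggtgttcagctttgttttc
In Hist1h1e the AC box, the CCAAT box and the TATA box follow each other towards the start. In Hist1h2bk a TATAAA match on the opposite strand and 3 CCAAT matches on either strand precede the octamer. The Hist1h2bk window overlaps that of Hist1h2ah, in which the same TATAAA letters read on the sense strand.

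The paralogs are close in sequence. Of 70 members, 60 shared at least 1 run of 100 bases with another member (3 H1, 18 H2A, 17 H2B, 12 H3 and 10 H4), and in 25 members over 50% of such runs were shared. Reads were 100 bases long per the labels, and how reads with several alignments were counted is not stated. Counts of Hist2h3b (77.1% shared), Hist1h2bk (70.8%), Hist1h2ag (76.2%) and Hist1h4n (80.7%) are therefore uncertain between paralogs. Those of Hist2h2ab (1.45% shared), Hist2h2ac (6.89%) and Hist1h4c (14.0%) are less exposed, and Hist2h4 and Hist4h4 shared none. Hist1h1e shares part of its length with an annotated transcript of its neighbour Hist1h2be.

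The 2 experiments differed widely in how much histone RNA they held. All members summed to 1596 ± 434 CPM in FL_NoUV (SD, n = 4) and 116 ± 8.69 CPM in WT_NoUV (SD, n = 3). The tables were normalized separately, come from different batch dates and give gene positions of different builds. Whether the same exons were counted in both was not checked. These levels are therefore set side by side without a test. The ratio of FL_NoUV to WT_NoUV was 8.97 for H1, 9.06 for H2A and 6.78 for H2B, but 61.2 for H3 and 124 for H4. In keratinocyte-experiment libraries 53 of 70 members averaged at least 1 CPM, against 9 of 70 in whole-body libraries. The 9 were Hist1h1c, Hist1h1d, Hist1h1e, Hist3h2a, Hist1h2bc, Hist1h2be, Hist2h2be, Hist1h4i and Hist4h4. Hist2h2be was at 8.43 CPM in FL_NoUV and 8.59 CPM in WT_NoUV, and Hist3h2a at 5.74 and 6.49 CPM in the same order. Hist1h4d, by contrast, was at 197 CPM in FL_NoUV and 0.329 CPM in WT_NoUV.

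**Figure D1:**
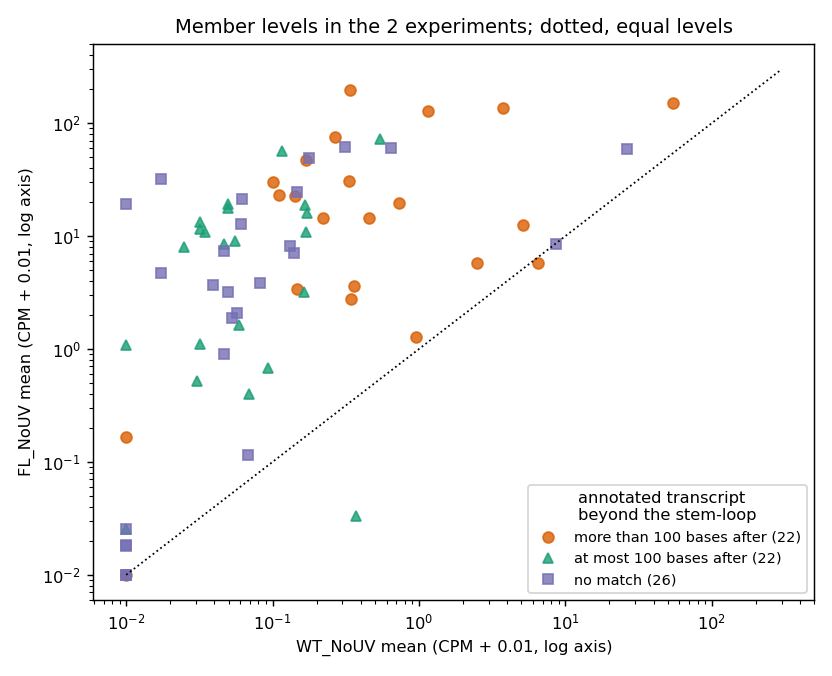
Mean level of each of the 70 members in WT_NoUV (x axis) and FL_NoUV (y axis), in CPM plus 0.01 on log axes, with symbols for how far the annotated transcript runs beyond the stem-loop (22, 22 and 26 members). Most members lie far above the dotted line of equal levels, and those near it include Hist2h2be and Hist3h2a.

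The longer annotated transcripts had the higher levels in the whole-body libraries. Of the 22 members with more than 100 annotated bases beyond the stem-loop, 7 averaged at least 1 CPM there and the median was 0.662 CPM. Of the 22 with at most 100 bases, 0 did, with a median of 0.0597 CPM, and of the 26 without a match 2 did (Hist1h2bc and Hist2h2be), with a median of 0.0372 CPM. In the keratinocyte experiment the medians were 10.0, 4.83 and 2.96 CPM in the same order. CPM is not scaled to gene length, so a longer transcript can gain counts by its length alone. Annotation length and counts also both depend on where reads have been found, so this is a description. Small RNAs that carry no poly(A) tail, a list of 8 chosen after these values were seen, differed in the same direction. Rn7sk, the RNA of the 7SK particle, was at 7125 to 14630 CPM in keratinocyte-experiment libraries and at 5.04 to 79.6 CPM in whole-body libraries. The labels give removal of ribosomal RNA for both, and the part of library preparation in these levels was not tested.

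Within families, few members carried most of the counts in the whole-body experiment. Hist1h1c, the H1.2 linker histone, held 85.8% to 94.7% of the H1 sum there and averaged 59.97 CPM, or 38.4 CPM per kb. Hist3h2a held 58.0% to 92.8% of H2A (mean 6.19 CPM, 2.88 CPM per kb), and Hist1h2bc 50.6% to 66.9% of H2B (22.6 CPM, 19.6 CPM per kb). Hist1h4i led H4 with 27.2% to 72.7% (3.20 CPM, 4.41 CPM per kb), and Hist2h3c2 led H3 with 17.8% to 69.2% (0.721 CPM, 0.707 CPM per kb). In the keratinocyte experiment the leaders held smaller shares. Values per kb use the gene lengths given with the whole-body counts here too, although positions of this experiment are of another build. Hist1h4d was highest in H4 with 32.6% to 42.0% (140 CPM, 123 CPM per kb), Hist1h1c in H1 with 23.5% to 68.1% (114 CPM, 73.1 CPM per kb) and Hist1h2bc in H2B with 13.6% to 60.6% (48.0 CPM, 41.6 CPM per kb). Hist1h3e (16.8 CPM, 20.1 CPM per kb) and Hist1h2ak (11.6 CPM, 29.5 CPM per kb) led H3 and H2A.

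**Figure D2:**
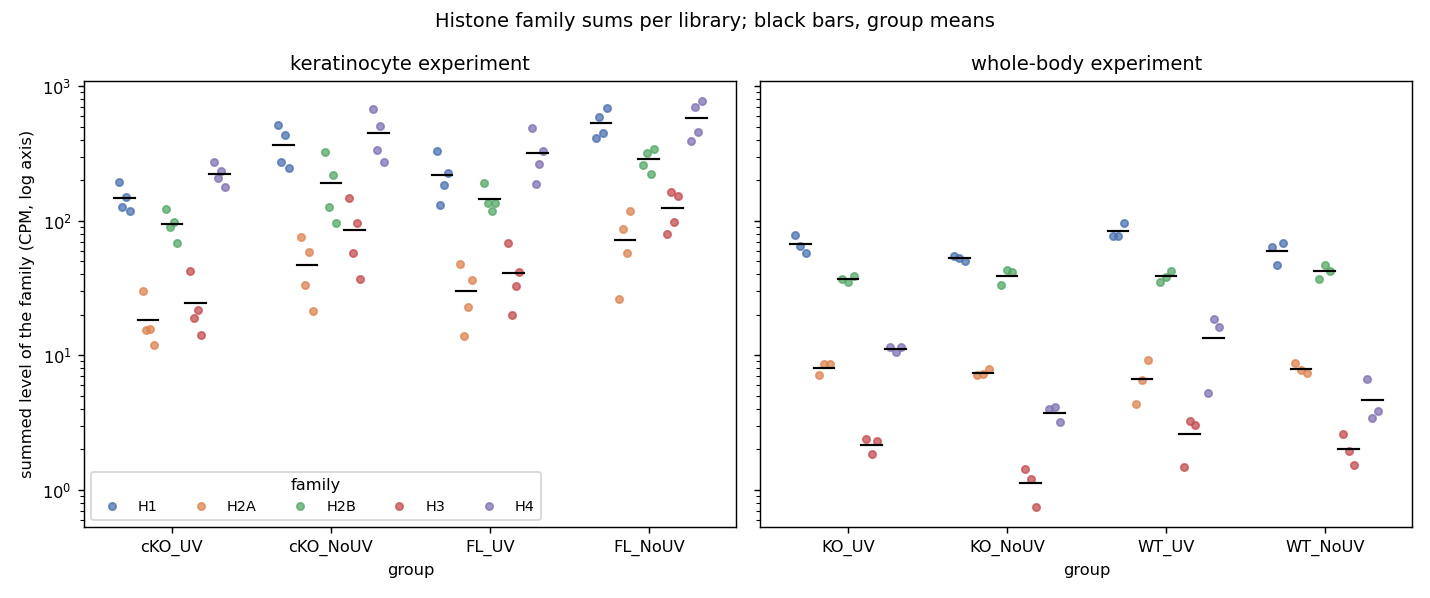
Summed level of each family per library in CPM on a log axis, in the keratinocyte experiment (left, 4 libraries a group) and the whole-body experiment (right, 3 libraries a group), with black bars for group means. Every family mean is lower in UV than in NoUV groups on the left, whereas the H4 means on the right are higher in UV groups.

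The comparison of UV with NoUV skin asks how the tissue responds to an acute exposure, in mice with and without Vsir in keratinocytes. In the keratinocyte experiment, histone RNA was lower after UV in both genotypes and in all 5 families. All members summed to 661, 459, 521 and 389 CPM in cKO_UV, against 1744, 825, 1309 and 674 CPM in cKO_NoUV. In FL_UV the sums were 1131, 488, 624 and 772 CPM, against 1169, 1857, 1292 and 2067 CPM in FL_NoUV. In both genotypes the UV libraries lay below the NoUV libraries without overlap, narrowly so for cKO_UV replicate 1 against cKO_NoUV replicate 4 and for FL_UV replicate 1 against FL_NoUV replicate 1. The log2 ratio of group means was -1.17 for cKO and -1.08 for FL. By family it was -1.32 and -1.29 for H1, -1.37 and -1.26 for H2A, -1.01 and -0.97 for H2B, -1.80 and -1.60 for H3, and -1.01 and -0.86 for H4, each with cKO before FL. UV and NoUV libraries were separate for H1 in both genotypes, for H4 in cKO alone and for H2B and H3 in FL alone, and they overlapped for H2A in both. The H3 share of all member counts was 4.599% ± 1.24 in cKO_UV and 7.08% ± 1.23 in cKO_NoUV, and 5.21% ± 0.837 in FL_UV and 7.67% ± 0.873 in FL_NoUV (SD, n = 4 each). The H4 share was 44.3% ± 2.03 in cKO_UV and 39.8% ± 1.19 in cKO_NoUV, and 41.8% ± 2.28 in FL_UV and 35.9% ± 1.98 in FL_NoUV.

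Of the 58 members with enough counts to test, 14 fell after UV in cKO skin and 10 in FL skin by edgeR's quasi-likelihood test at an adjusted p of 0.05, and 0 rose in either. Over all 19718 genes tested, 5.15% fell in cKO and 4.09% in FL, and 4.57% rose in cKO and 3.52% in FL. The filter keeps a gene with enough counts in as few as 4 libraries, so the 58 are not all members. A member high in NoUV skin alone passes it, so counts, medians and signs over the 58 are descriptions only. The family sums above hold all members, tested or not. The median log2 fold change of these 58 was -1.65 in cKO and -1.39 in FL, against 0.01 over all genes tested in each. Values were below 0 for 55 of 58 in cKO and 56 of 58 in FL. The UV and NoUV groups did not overlap, with UV lower, for 11 of 58 in cKO and 18 of 58 in FL, where 9.05% and 7.79% of all genes tested did so. For 0 members were they separate with UV higher, where 8.59% of all genes were in cKO and 6.67% in FL. Members called in both genotypes numbered 6, of 14 called in cKO (42.9%) and of 10 called in FL: Hist1h1e, Hist1h3e, Hist2h2ab, Hist2h2ac, Hist2h3b and Hist2h4.

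**Figure D3:**
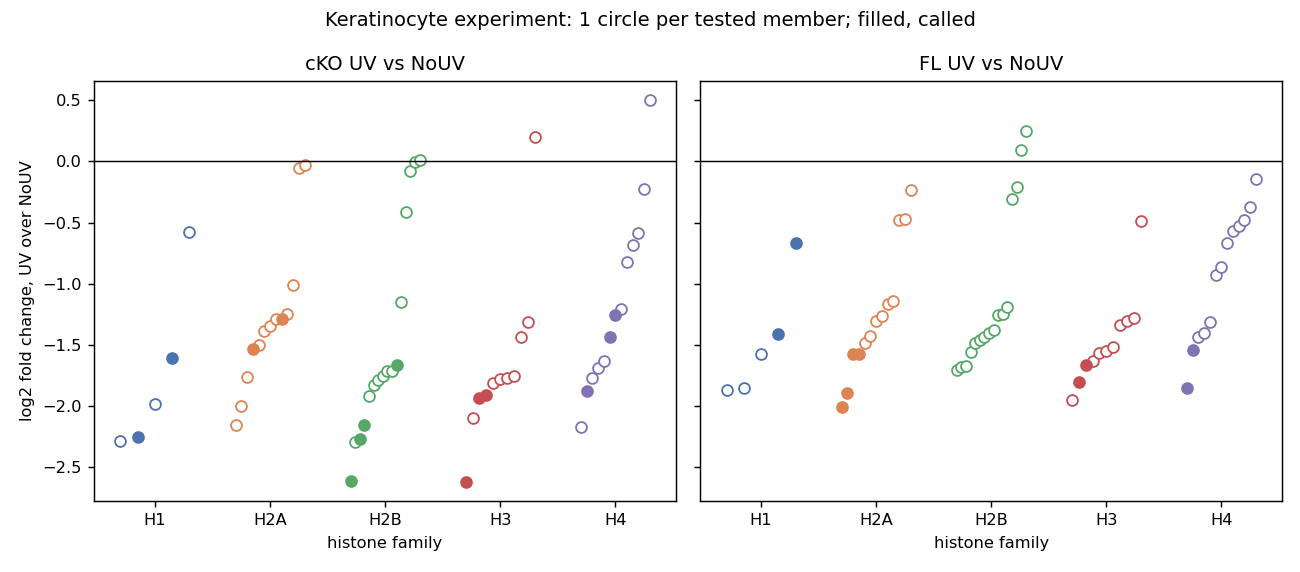
Log2 fold change of each of the 58 tested members, UV over NoUV, by family in cKO (left) and FL (right) skin, with filled circles for the 14 and 10 members called. Nearly all circles lie below 0, with medians of -1.65 in cKO and -1.39 in FL.

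Among linker histones, 2 of 5 tested H1 genes fell in each genotype and all 5 values were negative in both. Hist1h1e, which encodes H1.4 (chr13:23620629-23622558, minus strand), had 46.0, 23.7, 32.8 and 24.8 CPM in cKO_UV, against 133, 77.6, 111 and 66.6 CPM in cKO_NoUV. It had 79.8, 28.6, 43.0 and 51.6 CPM in FL_UV, against 115, 145, 108 and 174 CPM in FL_NoUV. No UV library reached a NoUV library of its genotype. The log2 fold change was -1.61 in cKO (SE 0.307, edgeR adjusted p 0.00433) and -1.41 in FL (SE 0.305, adjusted p 0.0103), the second of which missed the threshold without the expression filter (adjusted p 0.0548). Hist1h1c had 74.1 to 95.3 CPM in cKO_UV and 105 to 147 CPM in cKO_NoUV, and 74.7 to 119 CPM in FL_UV and 97.4 to 184 CPM in FL_NoUV. Its change was smaller, at -0.67 in FL (SE 0.181, edgeR adjusted p 0.0338), with overlapping groups, and the call was lost in 7 of 22 alternative fits. The other H1 gene called was Hist1h1d, which encodes H1.3, in cKO.

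Among H2A and H2B genes, calls differed more between genotypes. The UV effects themselves were not shown to differ, with 0 of these genes called in the test of that difference. Hist2h2ab had 1.48, 1.00, 0.960 and 0.745 CPM in cKO_UV, against 3.32, 2.20, 3.41 and 2.14 CPM in cKO_NoUV. It had 1.66, 1.23, 0.883 and 1.10 CPM in FL_UV, against 3.40, 4.08, 2.39 and 5.61 CPM in FL_NoUV. UV and NoUV libraries were separate in both genotypes, with log2 fold changes of -1.29 in cKO (SE 0.301, edgeR adjusted p 0.0139) and -1.57 in FL (SE 0.301, adjusted p 0.0048). Hist2h2ac, the neighbouring H2A gene of the Hist2 cluster, fell by 1.58 on the log2 scale in FL (SE 0.438, edgeR adjusted p 0.0369), with overlapping groups, a call lost in 8 of 22 alternative fits, and by 1.53 in cKO (SE 0.442, adjusted p 0.0381). Hist1h2ag fell by 2.01 in FL (SE 0.525, edgeR adjusted p 0.0271), with 0.361 to 0.957 CPM in FL_UV and 2.12 to 4.83 CPM in FL_NoUV, a call lost in 6 of 22. No H2B gene was called in FL, and 4 of 16 tested were called in cKO. Hist1h2bk fell by 2.61 on the log2 scale in cKO (SE 0.618, edgeR adjusted p 0.0152). It had 1.61, 0.361, 0.960 and 0.497 CPM in cKO_UV, against 13.4, 2.59, 5.48 and 2.09 CPM in cKO_NoUV, without overlap. The call was lost in 2 of 22 alternative fits, without the expression filter (adjusted p 0.0619) and without cKO_UV replicate 4. Hist1h2bc, the H2B gene with the highest mean, had 41.1 ± 6.37 CPM in cKO_UV and 40.7 ± 8.08 CPM in cKO_NoUV, and 51.1 ± 22.4 CPM in FL_UV and 59.2 ± 25.2 CPM in FL_NoUV (SD, n = 4 each). Its groups overlapped in both genotypes and it was not called.

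Among H3 genes, all 11 tested values were negative in FL and 10 of 11 in cKO. Hist2h3b (chr3:96268654-96269141, plus strand) had 3.58, 1.80, 2.19 and 1.69 CPM in cKO_UV, against 14.4, 7.74, 10.2 and 4.69 CPM in cKO_NoUV. It had 5.71, 2.89, 2.97 and 2.80 CPM in FL_UV, against 10.6, 15.1, 11.8 and 13.9 CPM in FL_NoUV. The groups were separate in both genotypes, with log2 fold changes of -1.94 in cKO (SE 0.340, edgeR adjusted p 0.00234) and -1.80 in FL (SE 0.335, adjusted p 0.00391). Hist1h3e fell by 1.91 in cKO (SE 0.427, edgeR adjusted p 0.0113) and by 1.66 in FL (SE 0.420, adjusted p 0.0240), to 9.88, 4.65, 4.66 and 3.92 CPM in cKO_UV, against 35.4, 16.1, 25.1 and 12.6 CPM in cKO_NoUV. The FL call of Hist1h3e was lost in 6 of 22 alternative fits and the cKO call in 1 of 22, without the expression filter (adjusted p 0.0505). Hist1h3b, an H3 gene of low level, fell by 2.62 in cKO (SE 0.612, edgeR adjusted p 0.0137), with 0 to 0.137 CPM in cKO_UV and 0.502 to 1.87 CPM in cKO_NoUV.

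All 13 H4 genes could be tested in the keratinocyte experiment. Hist2h4 (chr3:96261682-96263311, minus strand) had 25.7, 20.7, 23.0 and 25.8 CPM in cKO_UV, against 80.6, 55.5, 72.4 and 50.6 CPM in cKO_NoUV. It had 39.4, 14.9, 20.6 and 28.5 CPM in FL_UV, against 51.4, 92.6, 66.9 and 90.6 CPM in FL_NoUV. Every UV library was below every NoUV library of its genotype, with log2 fold changes of -1.44 in cKO (SE 0.259, edgeR adjusted p 0.00273) and -1.54 in FL (SE 0.259, adjusted p 0.00209), and these calls held in all 22 alternative fits in each genotype. Hist1h4h fell by 1.26 in cKO (SE 0.318, edgeR adjusted p 0.0215), with 22.4 to 30.7 CPM in cKO_UV and 41.7 to 98.5 CPM in cKO_NoUV, a call lost in 6 of 22 alternative fits (highest adjusted p 0.085), among them those without cKO_NoUV replicate 1 or cKO_UV replicate 2, 3 or 4. Hist1h4d, the H4 gene with the highest mean, had 86.8 ± 14.7 CPM in cKO_UV and 154 ± 56.5 CPM in cKO_NoUV, and 124 ± 45.5 CPM in FL_UV and 197 ± 56.1 CPM in FL_NoUV (SD, n = 4 each), and was not called. Hist1h4i stood at 5.98 ± 0.768 CPM in cKO_UV and 4.18 ± 2.68 CPM in cKO_NoUV, and at 5.23 ± 0.770 CPM in FL_UV and 5.76 ± 1.61 CPM in FL_NoUV, with overlapping groups.

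The 9 members that averaged at least 1 CPM in the whole-body libraries covered a wide range of log2 fold changes after UV in the keratinocyte experiment, -2.26 to 0.50 in cKO and -1.85 to 0.09 in FL. Their median log2 fold change was -0.08 in cKO and -0.31 in FL, against -1.72 and -1.43 for the 49 other tested members, and no test was made of the split. Calls were 2 of 9 in each genotype, against 12 of 49 of the others in cKO and 8 of 49 in FL. Transcript annotation did not separate the changes in the same way. The median was -1.23 in cKO and -1.29 in FL for tested members with more than 100 annotated bases beyond the stem-loop, and -1.79 and -1.42 for those with at most 100. By cluster name, taken from the symbol, 9 of 47 tested Hist1 genes and 5 of 7 tested Hist2 genes fell in cKO. In FL, 6 of 47 and 4 of 7 fell. Over all genes tested, 5.15% fell in cKO and 4.09% in FL. The median log2 fold change was -1.755 for Hist1 and -1.438 for Hist2 in cKO, and -1.4 and -1.539 in FL. The share called thus differed between the clusters more than the size of the change did.

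Genes of DNA replication did not pass the test in this experiment, where 9.72% of all genes were called in either direction in cKO and 7.62% in FL. Of 24 S-phase genes, among them Mcm2, Pcna and Cdc6, 0 were called in either direction in cKO or FL, with median log2 fold changes of -0.27 and -0.15. Of 12 mitosis genes 0 were called, with medians of -0.76 and -0.70. Of 12 genes of histone transcription and 3' end processing, such as Npat and Slbp, 0 were called, and of 14 histone chaperones 1 fell in cKO, Hira, which deposits the replication-independent H3.3 (-0.69, SE 0.144, edgeR adjusted p 0.0075). The ratio of the histone sum to the summed level of the 24 S-phase genes was 1.14 ± 0.242 in cKO_UV and 2.05 ± 0.401 in cKO_NoUV, and 0.982 ± 0.175 in FL_UV and 1.90 ± 0.383 in FL_NoUV (SD, n = 4 each). UV and NoUV libraries did not overlap in this ratio in either genotype, although the highest cKO_UV value of 1.44 lay close to the lowest cKO_NoUV value of 1.46. Against the 12 mitosis genes the ratio overlapped in both genotypes. It was 0.800, 1.17, 0.933 and 2.95 in cKO_UV, against 1.34, 1.51, 1.28 and 2.39 in cKO_NoUV, and 1.07, 0.821, 0.921 and 0.817 in FL_UV, against 0.875, 1.24, 1.502 and 1.30 in FL_NoUV. The separation of UV from NoUV libraries was thus seen against the S-phase list and not against the mitosis list.

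**Figure D4:**
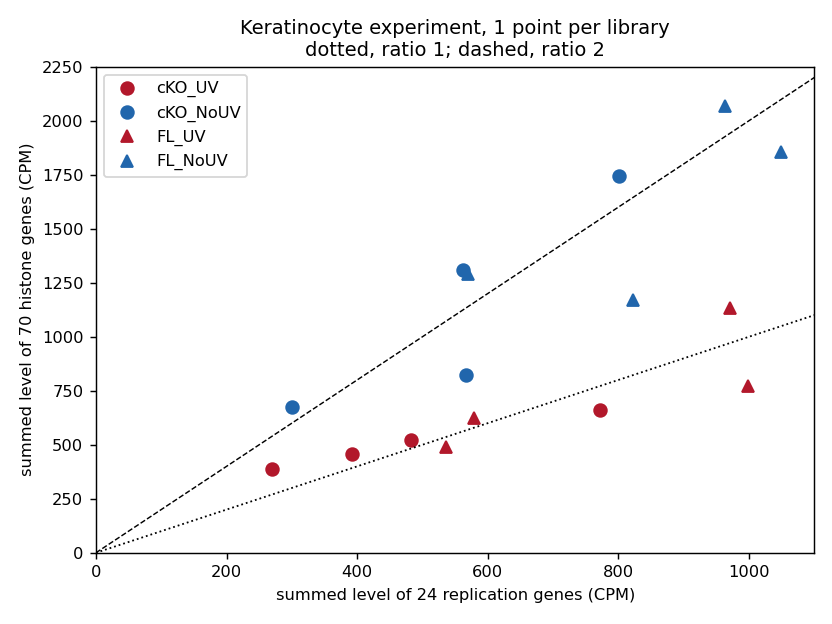
Summed level of the 70 histone genes against that of 24 S-phase genes, both in CPM, for the 16 libraries of the keratinocyte experiment, with lines at ratios of 1 (dotted) and 2 (dashed). UV libraries lie near the dotted line with group means of 1.14 in cKO and 0.982 in FL, and most NoUV libraries near the dashed line with means of 2.05 and 1.90.

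Most replication-independent histone genes can be expressed outside S phase and yield polyadenylated messages. Of 11 tested, 1 rose in each genotype and 1 fell in cKO, with median log2 fold changes of -0.15 in cKO and -0.12 in FL. H3f3b, which encodes H3.3, rose in both genotypes, by 0.66 in cKO (SE 0.130, edgeR adjusted p 0.00467) and 0.59 in FL (SE 0.130, adjusted p 0.0107). It stood at 508 ± 67.2 CPM in cKO_UV and 321 ± 25.3 CPM in cKO_NoUV, and at 499 ± 49.8 CPM in FL_UV and 331 ± 45.1 CPM in FL_NoUV (SD, n = 4 each). H1f0, the linker histone of differentiated cells, fell in cKO by 0.58 (SE 0.174, edgeR adjusted p 0.0456), and no other gene of this list was called there.

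Tissue composition varied between these libraries. The summed level of 15 measured anagen hair follicle genes ran from 252 to 623 CPM in cKO_UV and from 448 to 10090 CPM in cKO_NoUV, and from 240 to 3157 CPM in FL_UV and from 416 to 6950 CPM in FL_NoUV, with 1 of 15 tested genes called lower in each genotype. Skeletal muscle markers summed to 5421 to 17750 CPM in cKO_UV and 2179 to 8898 CPM in cKO_NoUV, and to 3512 to 9424 CPM in FL_UV and 2627 to 4314 CPM in FL_NoUV, with 0 of 6 called. Fibroblast markers summed to 4150 to 8645 CPM in cKO_UV and 4816 to 5912 CPM in cKO_NoUV, and to 7341 to 10260 CPM in FL_UV and 3891 to 6483 CPM in FL_NoUV. Adipocyte markers summed to 357 to 1118 CPM in cKO_UV and 243 to 576 CPM in cKO_NoUV, and to 420 to 669 CPM in FL_UV and 225 to 368 CPM in FL_NoUV. Both lists were separate between UV and NoUV libraries in FL and overlapped in cKO, with 0 genes called by edgeR. Hoxc10, a gene of posterior positional identity, was at 0 to 0.0823 CPM in cKO_UV and 0.0829 to 4.81 CPM in cKO_NoUV, and fell in cKO (edgeR adjusted p 0.0161). Its level was 0 to 4.71 CPM in FL_UV and 0.567 to 4.98 CPM in FL_NoUV. The part of composition and of body site in the histone changes was not tested. Without both shallow libraries, FL_NoUV replicate 1 and cKO_UV replicate 3, 9 members were called lower in cKO and 10 in FL.

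In the whole-body experiment the UV comparison gave another picture, confined among called members to H4. Of 23 members with enough counts to test, 4 rose after UV in KO skin and 4 in WT skin, and 0 fell in either, by edgeR at an adjusted p of 0.05. Over all 20365 genes tested, 11.3% rose in KO and 8.91% in WT, and 11.1% fell in KO and 9.84% in WT. The filter keeps a gene with enough counts in as few as 3 libraries and passed several H4 genes with almost no reads in NoUV skin. All called members were among the 8 of 13 H4 genes that passed the filter. Since a gene high in UV skin alone passes it, no count or median over these 8 is read as a result. The remaining 15 tested members, 5 H1, 2 H2A, 6 H2B and 2 H3 genes, were not called. The H4 sum was 11.6, 10.5 and 11.6 CPM in KO_UV, against 3.98, 4.10 and 3.18 CPM in KO_NoUV. It was 5.29, 18.6 and 16.3 CPM in WT_UV, against 6.65, 3.44 and 3.88 CPM in WT_NoUV. KO groups were separate, whereas WT_UV replicate 1 lay within the range of WT_NoUV. With 3 libraries a group, 25.3% of all genes tested were separate with UV higher in KO and 14.5% in WT.

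Hist4h4 (chr6:136801553-136804415, minus strand) had 3.24, 1.98 and 1.95 CPM in KO_UV, against 0.0824, 0.118 and 0.0579 CPM in KO_NoUV. It had 0.646, 2.51 and 4.41 CPM in WT_UV, against 0.220, 0 and 0.179 CPM in WT_NoUV. Both genotypes had every UV library above every NoUV library, with log2 fold changes of 3.85 in KO (SE 0.643, edgeR adjusted p 0.00132) and 3.55 in WT (SE 0.634, adjusted p 0.00255). Hist2h4 had 1.38, 1.11 and 1.15 CPM in KO_UV, against 0.275, 0.306 and 0.116 CPM in KO_NoUV, and its log2 fold change was 2.02 (SE 0.420, edgeR adjusted p 0.00446). It had 0.710, 2.095 and 1.71 CPM in WT_UV, against 0.397, 0.221 and 0.149 CPM in WT_NoUV, and its log2 fold change was 2.20 (SE 0.422, edgeR adjusted p 0.00368). The groups were again separate, at levels far below those of the same gene in the keratinocyte experiment.

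Hist1h4c (chr13:23697635-23698454, minus strand) rose by 1.99 in KO (SE 0.438, edgeR adjusted p 0.0061) and 2.54 in WT (SE 0.446, adjusted p 0.00234). It stood at 1.07 ± 0.184 CPM in KO_UV and 0.207 ± 0.0606 CPM in KO_NoUV, and at 1.36 ± 0.753 CPM in WT_UV and 0.159 ± 0.0917 CPM in WT_NoUV (SD, n = 3 each). The KO call was lost in 1 of 18 alternative fits, without both KO_NoUV replicate 2 and KO_UV replicate 3 (adjusted p 0.0926). Hist1h4a was called in WT alone, with 0.161, 0.827 and 0.740 CPM in WT_UV, against 0.0220, 0 and 0 CPM in WT_NoUV (log2 fold change 2.84, SE 0.495, edgeR adjusted p 0.00225). This rests on 61 reads in WT_UV and 1 read in WT_NoUV, a ratio of 65.9 with an exact 95% interval of 11.4 to 2640 that covers counting error only. Hist1h4j was called in KO alone (log2 fold change 2.20, SE 0.435, edgeR adjusted p 0.00349), with 34 reads in KO_UV and 1 read in KO_NoUV, a ratio of 39.1 with an interval of 6.56 to 1590. For both genes the fitted log2 fold change lies below the interval of the ratio. The prior count of 3 draws fitted values towards 0 where reads are so few. No member passed the test of the difference between the UV effects in KO and WT, so a call in one genotype alone is not shown to be particular to it. Hist1h4i, the H4 gene with the highest mean, had 3.95 ± 0.456 CPM in KO_UV and 2.34 ± 0.289 CPM in KO_NoUV, and 4.06 ± 1.93 CPM in WT_UV and 2.48 ± 0.968 CPM in WT_NoUV (SD, n = 3 each), and was not called.

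**Figure D5:**
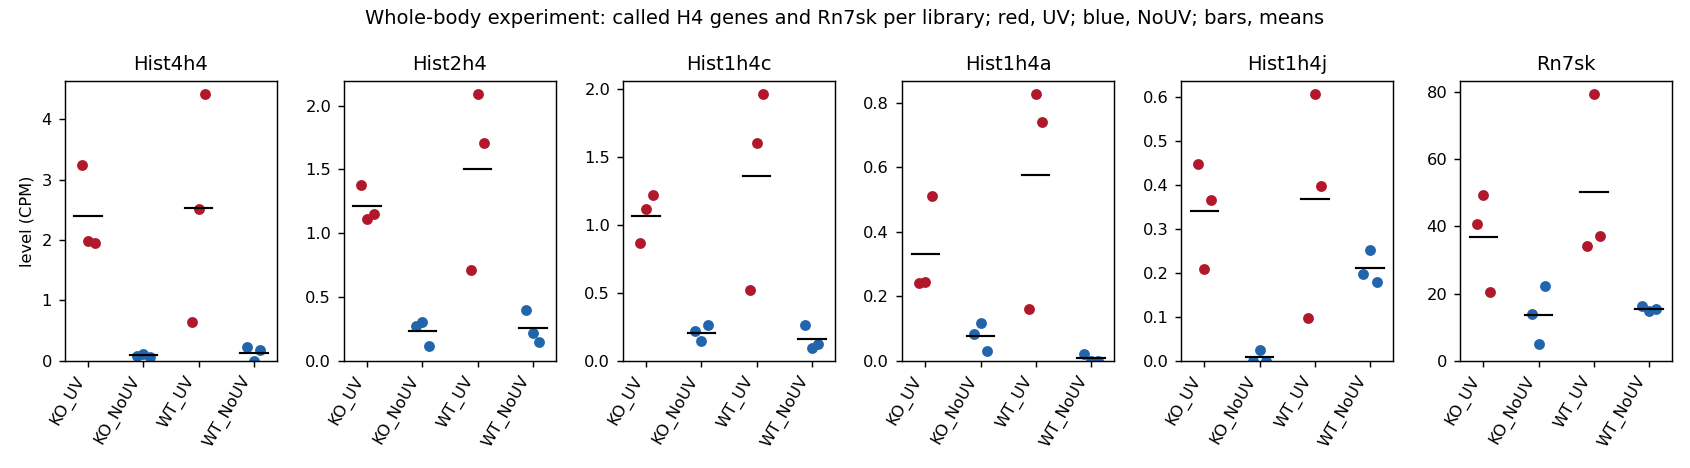
Level in CPM of the 5 called H4 genes and of Rn7sk in each whole-body library (3 per group; red, UV; blue, NoUV; bars, means). Hist4h4, Hist2h4 and Hist1h4c are separate between UV and NoUV in both genotypes, and Rn7sk is higher in UV means as well, at 36.9 CPM in KO_UV and 50.4 CPM in WT_UV against 13.7 and 15.5 CPM in the NoUV groups.

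The RNAs without a poly(A) tail that could be tested also rose after UV. WT_UV replicate 2 had both the highest H4 sum of the whole-body libraries, 18.64 CPM, and the highest Rn7sk level, 79.6 CPM. KO_UV replicates 1 and 3 had H4 sums of 11.59 and 11.55 CPM, with Rn7sk at 40.8 and 20.4 CPM. WT_UV replicates 1 and 3 had H4 sums of 5.294 and 16.31 CPM, with Rn7sk at 34.3 and 37.2 CPM. Rn7sk had 40.8, 49.3 and 20.4 CPM in KO_UV, against 14.0, 5.04 and 22.2 CPM in KO_NoUV, and 34.3, 79.6 and 37.2 CPM in WT_UV, against 16.4, 14.7 and 15.5 CPM in WT_NoUV. It rose in KO (1.42, SE 0.463, edgeR adjusted p 0.0426) and in WT (1.69, SE 0.465, adjusted p 0.0233), as did Scarna2, and these were the 2 of the 8 listed RNAs with enough counts to test. In the keratinocyte experiment 0 of these 8 were called, with median log2 fold changes of 0.61 in cKO and 0.52 in FL, opposite in sign to the histone members. Posterior Hox genes also differed between the whole-body groups. Hoxc10 stood at 5.70 ± 0.864 CPM in KO_UV and 0.0363 ± 0.0188 CPM in KO_NoUV, and at 5.86 ± 1.66 CPM in WT_UV and 0.00734 ± 0.0127 CPM in WT_NoUV (SD, n = 3 each), and 5 of 8 such genes were called higher in KO and 4 of 8 in WT, where 11.3% and 8.91% of all genes were. Cell type markers differed as well. Anagen hair follicle genes summed to 89.5 to 91.3 CPM in KO_UV and 217 to 235 CPM in KO_NoUV (5 of 13 tested genes called lower), and to 87.0 to 211 CPM in WT_UV and 193 to 319 CPM in WT_NoUV (3 of 13). Fibroblast markers summed to 11310 to 14720 CPM in KO_UV and 7686 to 9172 CPM in KO_NoUV (3 of 6 called higher), and to 6590 to 9260 CPM in WT_UV and 5525 to 9092 CPM in WT_NoUV (0 of 6). Of 8 T cell markers 4 were called lower in KO and 1 in WT, and of 4 tested neutrophil markers 3 were called higher in KO and 1 in WT. The part of RNA selection, body site or cell composition in the H4 rise was not tested.

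Members of the other families were not called in the whole-body experiment. Of all genes tested there, 25.3% in KO and 14.5% in WT were separate with UV higher. The H1 sum was 77.8, 64.6 and 57.6 CPM in KO_UV, against 55.1, 53.2 and 50.5 CPM in KO_NoUV, and 77.0, 77.5 and 95.9 CPM in WT_UV, against 63.4, 46.9 and 68.9 CPM in WT_NoUV. Both genotypes had UV above NoUV without overlap, with log2 ratios of 0.33 in KO and 0.48 in WT, carried by Hist1h1c at 62.2 ± 9.33 CPM in KO_UV and 47.7 ± 1.59 CPM in KO_NoUV, and 76.1 ± 12.4 CPM in WT_UV and 53.9 ± 12.3 CPM in WT_NoUV (SD, n = 3 each), which was not called. The H2B sum was 36.9 ± 2.02 CPM in KO_UV and 39.1 ± 5.26 CPM in KO_NoUV, and 38.7 ± 3.81 CPM in WT_UV and 42.0 ± 5.17 CPM in WT_NoUV, with overlap in both. H2A sums overlapped as well, and H3 sums were 2.17 ± 0.289 CPM in KO_UV and 1.13 ± 0.344 CPM in KO_NoUV, without overlap, and 2.59 ± 0.957 CPM in WT_UV and 2.03 ± 0.542 CPM in WT_NoUV, with overlap (SD, n = 3 each).

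The genes that make and process histone messages fell in part. Of 12, 4 fell and 1 rose in KO skin, and 5 fell and 1 rose in WT skin, where 11.1% of all genes fell and 11.3% rose in KO and 9.84% fell and 8.91% rose in WT. Npat, the coactivator of histone transcription, fell by 1.38 in KO (SE 0.258, edgeR adjusted p 0.00248) and by 1.31 in WT (SE 0.257, adjusted p 0.00429). It stood at 12.5 ± 1.97 CPM in KO_UV and 32.6 ± 3.66 CPM in KO_NoUV, and at 11.7 ± 3.72 CPM in WT_UV and 29.1 ± 7.91 CPM in WT_NoUV (SD, n = 3 each). Of 24 S-phase genes, Mcm6, a subunit of the replicative helicase, fell in both (log2 fold change -0.65 in KO, edgeR adjusted p 0.005, and -0.49 in WT, adjusted p 0.0261) and no other was called. Of 12 mitosis genes 3 fell in KO and 4 in WT, among them Ccna2, Ccnb1 and Cdk1. H3f3b rose here too, by 0.93 in KO (SE 0.141, edgeR adjusted p 0.000775) and 0.84 in WT (SE 0.141, adjusted p 0.00183), while H1f0 fell by 0.89 in KO (SE 0.15, edgeR adjusted p 0.00138) and 0.96 in WT (SE 0.15, adjusted p 0.00123).

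The genotype comparisons ask whether loss of Vsir changes histone RNA, and no member passed the test in any of them. For KO against WT, 0 of 23 tested members were called in NoUV skin and 0 in UV skin by edgeR, where 0.00982% and 0.0442% of all genes tested were called, the UV share being 0.0393% higher and 0.00491% lower. An unadjusted p under 0.05 was reached by 3 members in each. DESeq2 called 0 in both. All members summed to 104 ± 3.92 CPM in KO_NoUV and 116 ± 8.69 CPM in WT_NoUV, and to 125 ± 9.49 CPM in KO_UV and 145 ± 22.1 CPM in WT_UV (SD, n = 3 each), with overlap in both. Summed levels of other lists were separate between the genotypes, although 0 of their genes were called by edgeR. S-phase genes summed to 465 to 551 CPM in KO_NoUV and 696 to 874 CPM in WT_NoUV, and to 414 to 556 CPM in KO_UV and at least 611 CPM in every WT_UV library. Mitosis genes summed to 503 to 575 CPM in KO_NoUV and 824 to 921 CPM in WT_NoUV, with overlap in UV skin (260 to 509 CPM in KO_UV and 503 to 686 CPM in WT_UV). Suprabasal keratinocyte markers summed to 9513 to 14180 CPM in KO_NoUV and 18800 to 25430 CPM in WT_NoUV, and to 7275 to 13640 CPM in KO_UV and 14740 to 22060 CPM in WT_UV. Their part in the histone levels was not tested. Over all genes tested, 11.7% were separate with KO lower in NoUV skin and 10.2% in UV skin. The H3 sum was lower in KO_NoUV, at 1.43, 1.201 and 0.753 CPM, against 2.60, 1.957 and 1.52 CPM in WT_NoUV, without overlap, and no H3 gene was called.

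For cKO against FL, 0 of 58 tested members were called in NoUV skin and 0 in UV skin by edgeR and by DESeq2, where 0.0% of all genes tested were called in each by edgeR. An unadjusted p under 0.05 was reached by 0 members in NoUV skin and 7 in UV skin. The signs leaned one way, with 56 of 58 values below 0 in NoUV skin (median -0.56) and 55 of 58 in UV skin (median -0.84), against medians of 0.00 over all genes tested. The sums nevertheless overlapped, at 1138 ± 486 CPM in cKO_NoUV and 1596 ± 434 CPM in FL_NoUV, and 507 ± 116 CPM in cKO_UV and 754 ± 277 CPM in FL_UV (SD, n = 4 each). UV groups of cKO and FL were separate for 1 member, lower in cKO, and NoUV groups for 0 members. Over all genes, 1.38% were separate with cKO higher and 1.34% lower in UV skin, and 1.4% and 0.791% in NoUV skin. S-phase genes summed to 479 ± 214 CPM in cKO_UV and 771 ± 247 CPM in FL_UV, and to 558 ± 205 CPM in cKO_NoUV and 851 ± 209 CPM in FL_NoUV. No member passed the test of a difference in UV effect between genotypes (the interaction term), with 0 of 23 called for KO minus WT and 0 of 58 for cKO minus FL by edgeR and by DESeq2, where 0.0% of all genes were called in each by edgeR, and with 3 and 0 members at an unadjusted p under 0.05.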

How the data were processed

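Skin RNA was sequenced as paired reads of 100 bases from a stranded, ribosome-depleted kit, per the labels' protocols. The deposited tables hold raw counts per gene and a gene length in bases made by the authors. Tools were cutadapt 4.6, HISAT2 2.1.0 and featureCounts, per the submitters' processing notes. Strand and multi-mapping settings are not given in the sources used here.

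Each experiment was fitted alone over its 4 groups with edgeR 4.0.16 (R 4.3.3, limma 3.58.1): filterByExpr, TMM scaling, prior count 3 and the quasi-likelihood test, with Benjamini-Hochberg adjustment over all genes tested and a threshold of 0.05. The prior count draws log2 fold changes of genes with few reads towards 0. The SE printed is the size of the log2 fold change over the square root of the F statistic, so it is approximate for such genes. Family sums add CPM over all members and carry no p-value. The code was tested on simulated data. Replicates are separate samples per the labels, so p-values measure the spread between samples. The labels do not say that a replicate number marks a shared litter, batch or day, and the numbers were not used as a block.

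Members and lists were chosen with earlier results of these data known, and the list of small RNAs after seeing these values. Named members are the highest of each family and up to 8 called members of smallest p per comparison, with up to 3 called genes per list. Hist1h4i and Hist2h2be in the keratinocyte experiment, Rn7sk and Hoxc10 were chosen after their values were seen. Alternatives were DESeq2 1.42.0, RLE scaling, no filter, a replicate block, 2 groups only and leaving out libraries. Positions in the whole-body table are GRCm38; those of the other table are of another build and were not used. Sequences come from GENCODE M21 and RefSeq GRCm38.p6.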

Additional observations from a re-analysis of the deposited data

Results flagged for a closer look

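Of 80 groups of 4 libraries examined for a library far from the rest, 3 stood out, and chance alone gives about 1 in 20. Hist1h2bc was at 97.02 CPM in FL_NoUV replicate 1, against 45.56 to 48.07 CPM in the others of that group. Hist1h3e was at 9.877 CPM in cKO_UV replicate 1, against 3.923 to 4.663 CPM in the others. Hist2h3b was at 5.713 CPM in FL_UV replicate 1, against 2.798 to 2.97 CPM in the others.

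Several UV effects had opposite signs in the 2 experiments, with every UV library on one side of every NoUV library in each, and the difference between experiments was not tested. The log2 ratio of the H1 sum was 0.483 in WT and -1.294 in FL, and 0.333 in KO and -1.321 in cKO. That of the H4 sum was 1.581 in KO and -1.007 in cKO, and that of all members 0.262 in KO and -1.165 in cKO. The log2 fold change of Hist1h4h was 0.844 in KO and -1.258 in cKO. That of Hist2h4 was 2.204 in WT and -1.539 in FL, and 2.023 in KO and -1.438 in cKO.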

How the results depend on the processing

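By a rule that let small shifts pass, family sums counted as unchanged in 683 of 684 settings. The exception was H2A for KO against WT in NoUV skin, at a log2 ratio of 0.061 over members passing the filter, against -0.107 over all members. The rule also passed log2 ratios that crossed 0 when 1 library was left out. For KO against WT in NoUV skin they ran from -0.194 to 0.002 for H2B and from -0.489 to 0.036 for H4. Several differences in UV effect crossed 0 too, such as -0.21 to 0.249 for H1 in cKO minus FL. Log2 ratios of UV against NoUV kept their sign in each family when 1 library was left out. Counts of called members depended more on the setting. For members lower after UV in cKO (14) the count was 6 without the filter, 33 with DESeq2, 9 without both FL_NoUV replicate 1 and cKO_UV replicate 3, and 6 to 26 when 1 library was left out. It was 7 without cKO_NoUV replicate 1, cKO_UV replicate 2 or cKO_UV replicate 3, 8 without cKO_NoUV replicate 3, 6 without cKO_UV replicate 4, 24 without cKO_NoUV replicate 4 and 26 without cKO_UV replicate 1. For FL (10) it was 5 without the filter, 22 with DESeq2 and 4 to 14 when 1 library was left out. It was 4 without FL_NoUV replicate 2 or 4 or FL_UV replicate 2, 3 or 4, and 6 without FL_NoUV replicate 3. With a replicate block the count was 21 in cKO and 18 in FL, both higher. Same-numbered libraries correlated above 0.1 in 13 of 24 pairs, and 9 of 16 libraries correlated best with one of their own number, a hint of pairing from the data that the labels do not state. The number series in the column names of this experiment follow the replicate number as well. For members higher after UV in KO (4) the count was 8 with 2 groups only. The counts of 0 lower ranged from 0 to 1 when 1 library was left out: Hist3h2a in WT (without WT_UV replicate 3) and Hist1h1d in KO (without KO_NoUV replicate 1). For KO against WT in NoUV skin 1 member was lower without the filter, Hist1h4j (adjusted p 0.0467). The causes were not tested. Low counts limit the whole-body H4 genes.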
